A study of Homo sapiens with 6 samples.

Results

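The genes described here make the entry, folding and glycosylation machinery of the endoplasmic reticulum (ER). They are 36 genes, given as a list by gene symbol, and each was taken as the locus whose gene names include it. All 36 were found, each in a locus of its own, among the 62828 loci of the table. All 36 passed the minimum of 1 FPKM (fragments per kilobase of transcript, scaled to library size, so a unit per length) in the mean over the libraries. That minimum kept 12838 loci, of which 10289 hold a protein-coding gene and form the background below. STT3A, SSR1, DDOST and HSP90B1 lie in 4 loci merged with further gene names, that of STT3A with CHEK1. Their values can include fragments of those neighbours.

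The RNA came from K562, an established human chronic myelogenous leukemia line. One culture condition received siRNA against HNRNPU at 300 nM and the other received control siRNA oligos. HNRNPU encodes a nuclear RNA- and DNA-binding protein, and the labels give its effect on where long noncoding RNAs reside as the aim of the study. Whole-cell, nuclear and cytosolic RNA of each condition gave 6 groups of 1 library, so no value has a replicate check, no test was possible and genes are described by fixed rules of size. The labels do not say whether the 3 preparations of a condition share a culture.

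Proteins bound for secretion, for lysosomes or for the cell surface begin as chains that are made on ribosomes docked at the ER. The signal recognition particle brings a ribosome with a newly made signal sequence to its receptor, and the chain then passes through the Sec61 channel. Signal peptidase removes the signal, oligosaccharyltransferase adds an N-glycan, and chaperones, lectins and disulfide isomerases fold the product. The outer nuclear membrane is continuous with the ER and also carries ribosomes, so mRNAs at the ER lie in membranes that are joined to the nucleus.

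HNRNPU itself was left at 43.0% of its control FPKM in whole-cell RNA, 39.0% in nuclear RNA and 22.1% in cytosolic RNA, in a locus that also carries an antisense name. All 10 erythroid markers of the K562 line were detected, with GATA1 between 26.2 and 55.9 FPKM. Among markers of other cell types, ALB reached at most 0.0588 FPKM, COL1A1 1.06 and CD3E 2.12, whereas EPCAM stood at 10.7 to 23.7. RNAs encoded in mitochondria also followed the nuclear preparation: 10 of 11 had a nuclear to cytosolic ratio at least 2-fold above the protein-coding median in the control and 11 after knockdown, with a median log2 ratio of 1.16 and 1.71. Mitochondrial loci held 6.43% and 8.47% of all FPKM in nuclear RNA against 1.37% and 1.14% in cytosolic RNA, control first. The part of whatever carried mitochondrial RNA into the nuclear preparation in the ER results below was not tested.

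The first sequences are shown because they are how a ribosome's product is marked for the ER. Each line gives the first 78 bases of the coding sequence (GENCODE release 29, GRCh38), 5′ to 3′. Capitals mark codons with T in their second place, which encode hydrophobic residues such as those of a signal sequence. The first 3 genes make soluble proteins of the ER lumen and had high nuclear to cytosolic ratios, and the last 3 had the lowest ratios of the 36.
HSPA5: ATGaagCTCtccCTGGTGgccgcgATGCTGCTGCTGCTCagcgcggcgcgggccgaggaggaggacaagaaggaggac
PDIA4: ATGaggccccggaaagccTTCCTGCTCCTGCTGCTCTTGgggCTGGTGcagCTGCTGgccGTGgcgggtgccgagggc
CALR: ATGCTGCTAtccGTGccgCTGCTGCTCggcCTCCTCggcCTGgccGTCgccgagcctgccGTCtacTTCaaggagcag
SEC61G: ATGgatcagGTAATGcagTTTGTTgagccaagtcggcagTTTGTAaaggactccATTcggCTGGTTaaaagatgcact
SEC61B: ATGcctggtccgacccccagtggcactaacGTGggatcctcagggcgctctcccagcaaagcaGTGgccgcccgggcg
SEC11A: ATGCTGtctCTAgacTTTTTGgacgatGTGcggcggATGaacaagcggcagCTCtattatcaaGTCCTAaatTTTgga

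Read by eye, the capitals sit close together in HSPA5 and PDIA4. In CALR most lie in the first part of the window and others lie near its end. In SEC61B, a membrane protein anchored by its tail, 2 of 25 codons after the start codon carry the T, against 12 in PDIA4 and CALR. SEC61G and SEC11A have 9 and 10 such codons, more than the 8 of HSPA5, but spread over the window. The genes shown are examples, and other members go the other way. UGGT1 has 4 such codons at a control log2 nuclear to cytosolic ratio of 1.12. SSR1 has 14, the highest share of the 36, at a ratio of 0.14. Over the 36 the share of such codons and the control ratio had a Spearman rho of 0.17.

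Soluble proteins of the lumen often end in a retrieval signal of a basic residue, an acidic residue, glutamate and leucine, known as KDEL. The last 15 bases of the coding sequence are shown for members that carry it, because this end was read in all protein-coding loci below. Capitals mark the 4 codons of the signal, and the stop codon follows in lower case.
HSP90B1: AAAGATGAATTGtaa
HSPA5: AAAGATGAGTTGtag
PDIA4: AAGGAAGAGCTTtga
UGGT1: CGTGAAGAATTAtga
CALR: AAGGACGAGCTGtag
PDIA6: AAAGATGAGTTGtga
P4HB: AAAGATGAACTGtaa
ERP29: AAAGAGGAGCTGtaa

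These 8 genes spell the same kind of ending with various codons. HYOU1 and PDIA3 end in related codons that fall outside that rule.

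The 36 ER genes were abundant mRNAs in all libraries. Their median level was 55.1 FPKM in control whole-cell RNA, 87.4 in control nuclear RNA and 61.0 in control cytosolic RNA, against protein-coding medians of 8.92, 9.98 and 14.5. CANX, the membrane-bound lectin calnexin, was the highest of the 36 with a mean of 309 FPKM over the 6 libraries, and DNAJC3, an HSPA5 co-chaperone, the lowest with 8.73. Relative to other coding genes the 36 thus stood higher in nuclear than in cytosolic RNA.

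**Figure D1:**
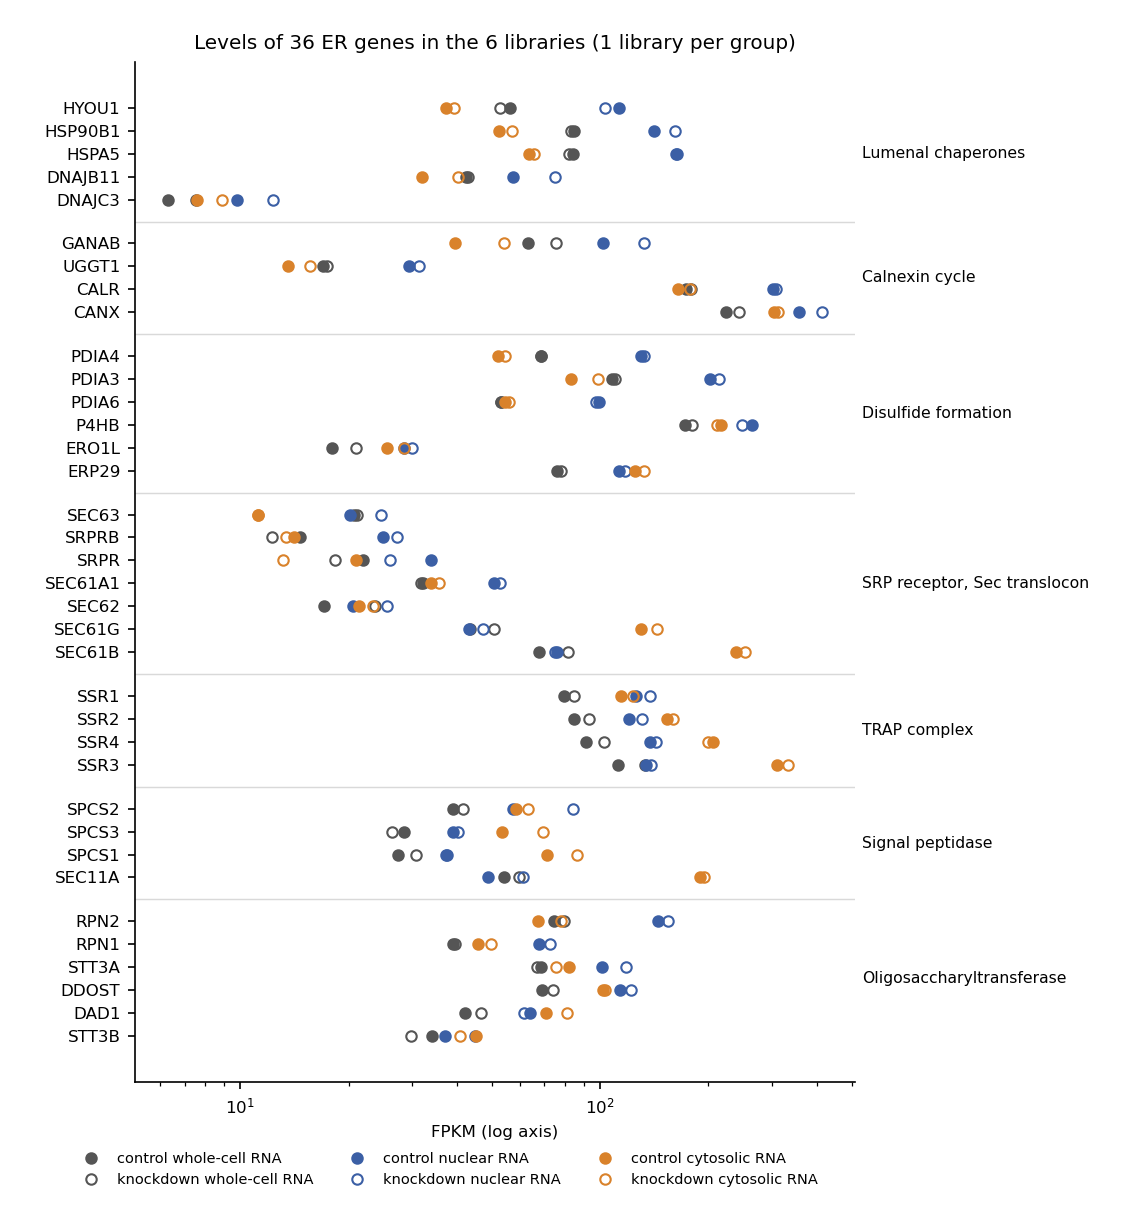
FPKM (log axis) of the 36 genes, grouped by role, in the 6 libraries, 1 point per library. Filled points are control and open points HNRNPU knockdown, and blue nuclear points lie to the right of orange cytosolic points for HSPA5 and the other lumenal chaperones but to the left for SEC61B, SEC61G, SSR3 and SEC11A.

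The nuclear to cytosolic ratio, as log2 of FPKM plus 0.1, compared where each mRNA was recovered. The 36 genes had a median log2 ratio of 0.29 in the control and 0.44 after knockdown, whereas protein-coding loci had -0.61 in each condition. Nuclear FPKM exceeded cytosolic FPKM for 23 of the 36 in the control, where 26.7% of protein-coding loci did so, and for 26 after knockdown, where 24.8% did so. A ratio at least 2-fold above the protein-coding median was found for 16 of 36 in the control (background 16.3%) and for 20 after knockdown (background 14.9%). All 16 of the control were among the 20. A ratio at least 2-fold below that median was found for SEC11A and SEC61B in the control (background 11.6%) and for 2 genes after knockdown (background 10.5%). In bulk RNA, fewer cells and less RNA per cell cannot be told apart, and FPKM is a share of a library, so a ratio of 1 does not mean equal amounts of an mRNA in nucleus and cytosol. With libraries scaled to equal totals without mitochondrial and small RNA loci the protein-coding median of the control moved to 0.37 and 32 of the 36 exceeded 0, so the ratios are best read against that median. There 31 of 36 lay above it in the control and 30 after knockdown.

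**Figure D2:**
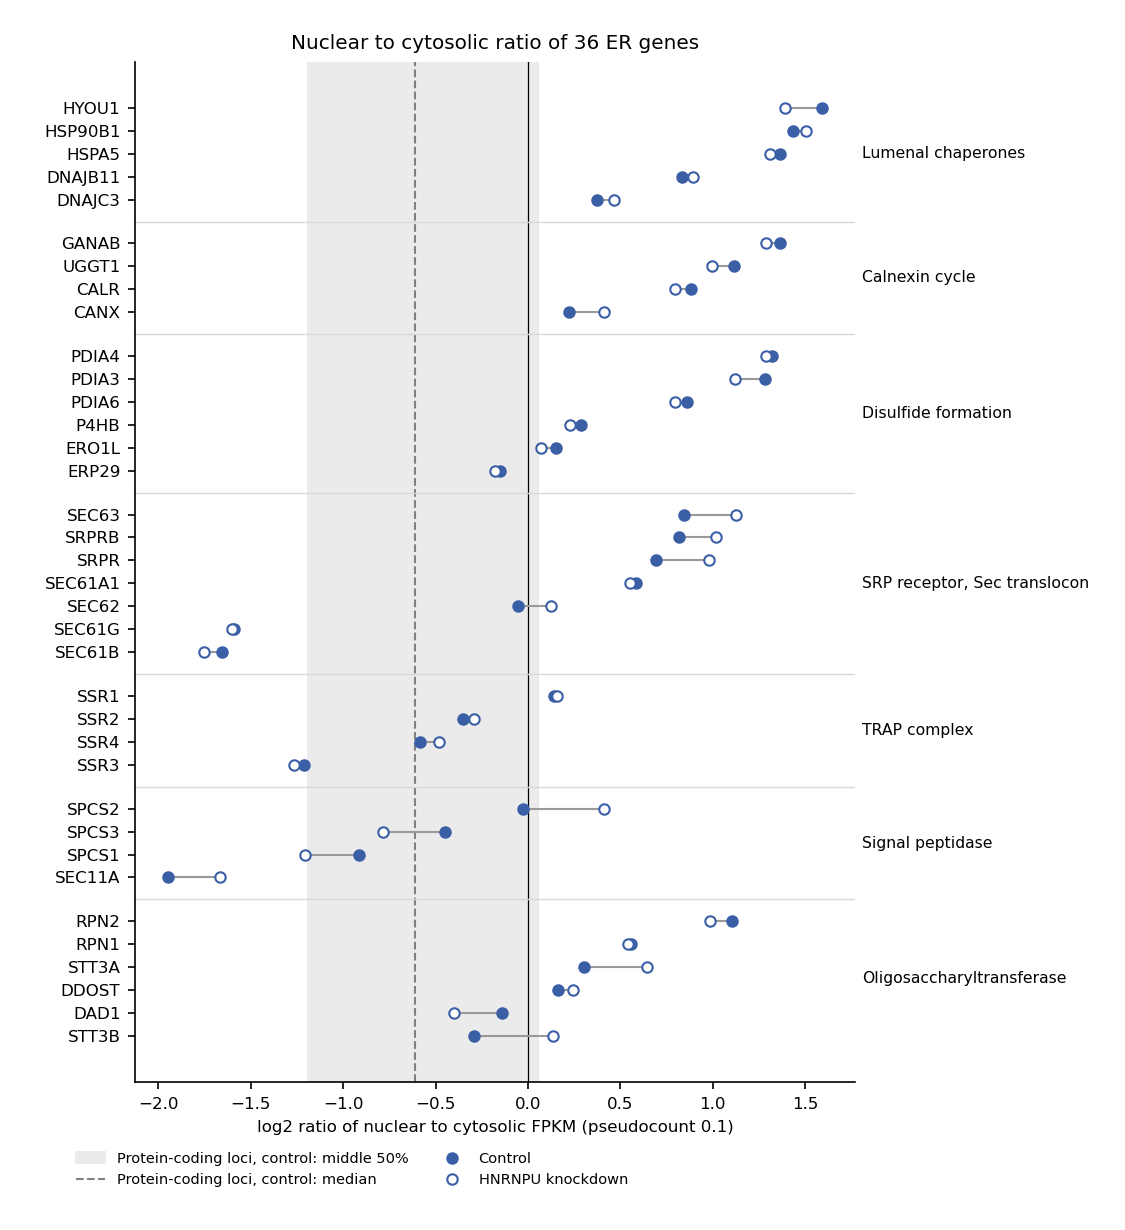
Log2 nuclear to cytosolic FPKM ratio of the 36 genes in the control (filled) and after knockdown (open), by role. The grey band spans the middle 50% of protein-coding loci in the control, from -1.19 to 0.05, with their median dashed at -0.61. All lumenal chaperones lie right of the band, and the control points of SEC61G, SEC61B, SSR3 and SEC11A lie left of it.

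The lumenal chaperones and co-chaperones stood furthest toward the nuclear preparation, with a median log2 ratio of 1.36 in the control and 1.31 after knockdown. HSPA5 (BiP, the lumenal HSP70, hg19 chr9:127997132-128003609) had 163 FPKM in nuclear RNA of both conditions. Its cytosolic values were 63.4 FPKM in the control and 65.4 after knockdown, and its whole-cell values 84.0 and 81.8. Nuclear values were thus about the same in the conditions and above all the other libraries, with a control ratio of 1.36 on the log2 scale and a counting error of 0.0282. HYOU1, a large HSP70-related exchange factor for HSPA5 (hg19 chr11:118914900-118927913), had the highest control ratio of the 36, 1.59. Its FPKM was 113 and 103 in nuclear, 37.3 and 39.4 in cytosolic and 56.2 and 52.6 in whole-cell RNA, control first. HSP90B1, the lumenal HSP90 (also called GRP94), had 141 and 162 FPKM in nuclear, 52.3 and 57.0 in cytosolic and 84.5 and 83.2 in whole-cell RNA. For these 3 chaperones both nuclear values exceeded both whole-cell values, which exceeded both cytosolic ones. That order was not general: control whole-cell FPKM lay between the control fractions for 14 of the 36 and below both for 21. FPKM levels of different preparations are thus not on a common scale. DNAJB11, a co-chaperone of HSPA5, had log2 ratios of 0.83 and 0.89, control first. DNAJC3 was the lowest of the group, at 0.37 and 0.46. All 5 lay above the protein-coding median, 4 of them at least 2-fold in the control and 5 after knockdown.

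The calnexin-calreticulin cycle, in which lectins hold monoglucosylated glycoproteins until they are folded, came next with a median log2 ratio of 1.002 in the control. GANAB, the catalytic subunit of glucosidase II that trims glucose from the glycan, had 102 and 133 FPKM in nuclear, 39.5 and 54.1 in cytosolic and 63.1 and 75.2 in whole-cell RNA. Nuclear values were the highest in each condition, and all 3 knockdown values lay above their control values. UGGT1, the folding sensor that puts glucose back on misfolded glycoproteins, had log2 ratios of 1.12 and 0.997, and the soluble lectin CALR 0.89 and 0.80. CANX, the membrane-bound lectin, had 0.22 in the control and 0.41 after knockdown, so that 3 of 4 were at least 2-fold above the protein-coding median in the control and 4 after knockdown.

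Among the 6 genes of disulfide formation and isomerisation the log2 ratio of the control ran from -0.15 for ERP29 to 1.32 for PDIA4. PDIA4, a multi-domain disulfide isomerase, had 130.0 and 133 FPKM in nuclear, 51.9 and 54.3 in cytosolic and 68.4 and 68.4 in whole-cell RNA. PDIA3, the isomerase that works with calnexin and calreticulin, had 202 and 214 FPKM in nuclear, 83.1 and 98.4 in cytosolic and 108 and 110.1 in whole-cell RNA. Both isomerases were more than 2-fold higher in nuclear than in cytosolic RNA in each condition. The others were PDIA6, P4HB (protein disulfide isomerase itself) and ERO1L (now ERO1A, the oxidase that recharges it), with control ratios of 0.86, 0.29 and 0.15. The 3 genes PDIA3, PDIA4 and PDIA6 were at least 2-fold above the protein-coding median in both conditions, and all 6 lay above it.

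The signal recognition particle receptor and the Sec translocon were split. SRPR and SRPRB, the 2 subunits of the receptor, SEC63, a membrane-bound J-domain partner of HSPA5, and SEC61A1, the channel subunit itself, had control log2 ratios of 0.59 to 0.84. SEC62, which acts with SEC63 on small precursors, was at -0.05. The small subunits of the channel had the opposite pattern. SEC61B (hg19 chr9:101984346-101992897) had 75.7 and 74.98 FPKM in nuclear, 239 and 253 in cytosolic and 67.8 and 81.7 in whole-cell RNA. SEC61G had 43.2 and 47.4 FPKM in nuclear, 130.2 and 144 in cytosolic and 43.6 and 50.8 in whole-cell RNA. Cytosolic values of SEC61B and SEC61G were the highest by far in each condition, with control log2 ratios of -1.65 and -1.59. Within the single channel complex SEC61A1, at 0.59 and 0.56, thus stood more than 2 log2 units above both small subunits.

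The 4 genes of the translocon-associated protein complex, which helps signal sequences to open the channel, had control log2 ratios of 0.14 for SSR1, -0.35 for SSR2, -0.58 for SSR4 and -1.21 for SSR3. SSR3, its multi-span subunit, had 134 and 139 FPKM in nuclear, 309.6 and 334 in cytosolic and 112 and 133 in whole-cell RNA. Its cytosolic values were the highest of the 36 genes in that preparation, and none of the 4 was at least 2-fold above the protein-coding median in either condition.

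The signal peptidase complex held the lowest ratio of all. SEC11A, a catalytic subunit (hg19 chr15:85212775-85259947), had 49.0 and 61.0 FPKM in nuclear, 189 and 194 in cytosolic and 54.0 and 59.4 in whole-cell RNA, a control log2 ratio of -1.95 with a counting error of 0.0426. This placed it at the 5.18th percentile of protein-coding loci, whereas HSPA5 was at the 96.5th. SPCS1 had 37.7 and 37.4 FPKM in nuclear, 71.0 and 86.4 in cytosolic and 27.4 and 30.8 in whole-cell RNA. SPCS3 had 39.0 and 40.2 FPKM in nuclear, 53.3 and 69.4 in cytosolic and 28.5 and 26.5 in whole-cell RNA. Both accessory subunits were higher in cytosolic than in nuclear RNA of each condition, and both had higher cytosolic values after knockdown. SPCS2 was close to even in the control, at 57.4 FPKM nuclear and 58.5 cytosolic.

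Of the 6 oligosaccharyltransferase genes, RPN2 and RPN1 (the ribophorins) had control log2 ratios of 1.11 and 0.56 and DDOST 0.16. STT3A, the catalytic subunit at the translocon, had 101 and 118 FPKM in nuclear, 81.9 and 75.5 in cytosolic and 68.6 and 66.9 in whole-cell RNA. STT3B, the catalytic subunit that can act after translation, had 37.0 and 44.9 FPKM in nuclear, 45.3 and 40.8 in cytosolic and 34.2 and 29.8 in whole-cell RNA. STT3A was higher in nuclear RNA in each condition, while STT3B had log2 ratios of -0.29 and 0.14, on either side of even. DAD1, the smallest subunit listed, had 64.0 and 61.5 FPKM in nuclear, 70.5 and 81.1 in cytosolic and 42.2 and 46.8 in whole-cell RNA.

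Grouped by how the protein meets the membrane, a property known from the proteins and not used to choose the genes, the order was similar. The 14 soluble lumenal proteins with a cleaved signal peptide had a median control log2 ratio of 1.002, all 14 lay above the protein-coding median and 10 of them at least 2-fold. The 7 single-span membrane proteins with a cleaved signal peptide had a median of 0.16, and all 7 lay above that median. The 12 membrane proteins without a cleaved signal, which insert by a transmembrane segment, had a median of -0.10, and 9 lay above it. Of the 3 genes for proteins that are tail-anchored or bound to the membrane after translation, SEC61B and SEC61G lay far below it. The third, SRPR, is peripheral and had a log2 ratio of 0.69, with 10 of its 25 codons after the start carrying T in the second place. Median coding length fell in the same order of groups, with 1522.5, 1371, 748.5 and 291 bases. SRPR, with 1917 bases, has the longest coding sequence of its group. The groups thus differ in length as well, and the part of each property in the ratio was not tested. With 3 to 14 genes in each group and 1 library per point, these are descriptions.

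Coding length moved with the ratio. Across the 36 genes, log2 coding length (stop codon included) and the log2 nuclear to cytosolic ratio of the control had a Pearson r of 0.81 and a Spearman rho of 0.79, and after knockdown 0.84 and 0.80. Across 10283 protein-coding loci with a transcript the control values were 0.43 and 0.46. All these points share the same 2 libraries of a condition and their depth. With the length of the whole transcript the r of the 36 was 0.51, and within the 14 soluble proteins r with coding length was 0.68. Among the 23 genes with a coding length of at least 1 kilobase r was 0.40 with coding length (rho 0.45) and -0.11 with transcript length. That subset spans a narrower range of lengths, which by itself lowers r, so the part of the short genes was not tested. Each gene was then set beside protein-coding loci of its own length. Members of 1201 to 1800 bases had a median ratio of 0.37 against -0.55 for the 2400 coding loci of that length, and all 9 lay above it. For 1801 to 2400 bases the medians were 0.84 and -0.36, and all 7 lay above. Of the 9 members up to 600 bases, 6 lay above the median of their bin, -1.38, and SEC61B, SEC61G and SEC11A lay below. In all, 32 of 36 lay above the median of their length in the control and 33 after knockdown, with STT3B the one exception among the 27 genes above 600 bases in the control.

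**Figure D3:**
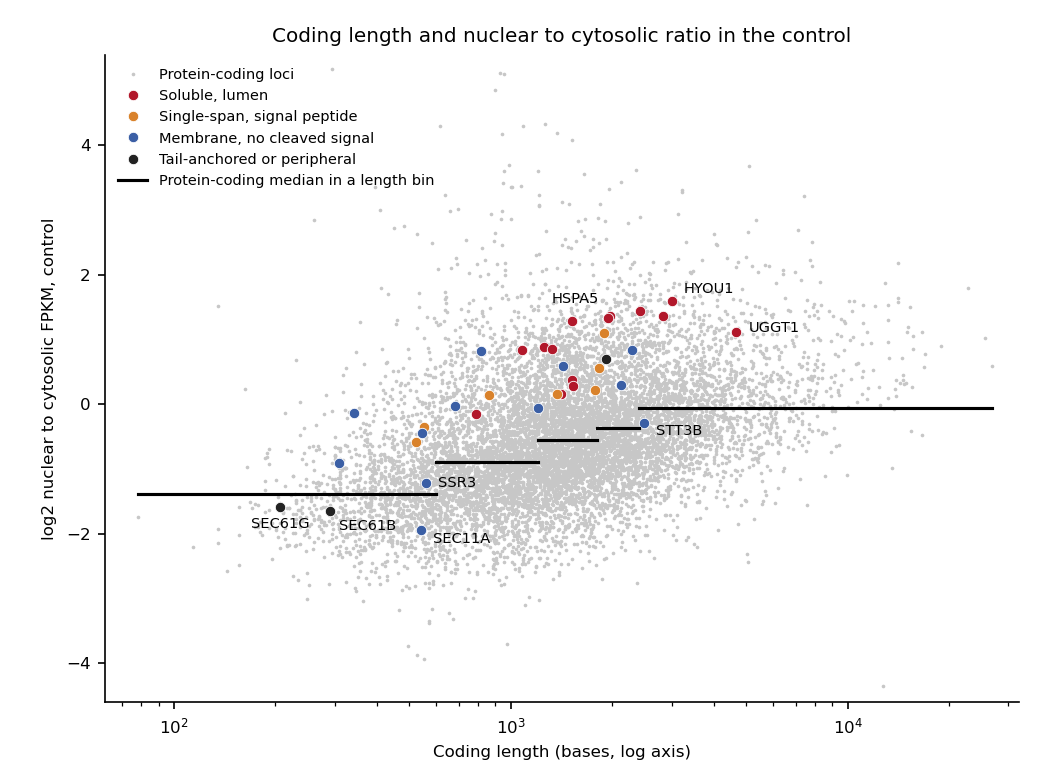
Coding length in bases (log axis) against the log2 nuclear to cytosolic FPKM ratio in the control, for protein-coding loci (grey) and the 36 genes coloured by how the protein meets the membrane. Black bars are the protein-coding medians of 5 length bins, and 32 of the 36 points lie above their bar, with HYOU1 the highest and SEC11A the lowest.

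The retrieval signal shown above was then read in all protein-coding loci. This signal was not used to choose the genes. The loci that carry it were found by sequence alone, but those named below were chosen after their values were seen. It ended the coding sequence of 33 loci, 8 of them members. The 25 that are not members had a median control log2 ratio of 0.34, and 12 of them (48%) were at least 2-fold above the protein-coding median, against 16.1% of loci without the signal. The 8 members had a median of 1.002 and 6 at least 2-fold above. Among the 25, SERPINH1, a collagen chaperone, had 82.8 FPKM in nuclear and 40.6 in cytosolic control RNA, while PRKCSH, the second subunit of glucosidase II, had 129.9 and 163, so the ratio varied among genes that share the signal. Some of the 25, such as PRKCSH, ERP44 and EDEM3, are counted again in the lists of related genes below. A coding start rich in T at second places, at least 40% of codons 2 to 26, was found in 1107 loci with a median of -0.17 and 33.8% at least 2-fold above, against -0.65 and 14.1% in 9176 other loci. Within the 36 the same split gave medians of 0.48 (14 genes) and 0.19 (22 genes), and a rho of 0.17.

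Few of these genes differed by 1.5-fold or more between knockdown and control. In whole-cell RNA none of the 36 was at least 1.5-fold higher (background 3.29%) or lower (background 2.25%). In nuclear RNA none was higher (background 2.25%) or lower (background 2.91%). In cytosolic RNA none was higher (background 3.27%) and SRPR alone was lower (background 3.04%). Median log2 knockdown ratios were 0.09 in nuclear, 0.10 in cytosolic and 0.06 in whole-cell RNA, beside protein-coding medians of 0.04, 0.04 and 0.07. With so few genes, 0 or 1 call per comparison is near the background and no result about the group.

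SRPR, now named SRPRA, encodes the subunit of the receptor that binds the signal recognition particle (hg19 chr11:126132814-126139039). Its FPKM, control first, was 33.9 and 26.1 in nuclear, 20.9 and 13.2 in cytosolic and 22.0 and 18.4 in whole-cell RNA. The knockdown value was the lower in each preparation, and the log2 ratios were -0.26 whole-cell, -0.37 nuclear and -0.66 cytosolic. The last has a counting error of 0.0767 and lies at the 2.40th percentile of protein-coding loci. Its partner SRPRB, which anchors the receptor in the membrane, had 14.7 and 12.3 FPKM in whole-cell, 24.9 and 27.3 in nuclear and 14.1 and 13.4 in cytosolic RNA, so its nuclear value did not share that direction.

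Ratios above 0 in all 3 preparations were found for 20 of 36, where 26.9% of protein-coding loci had them, and below 0 in all 3 for SRPR alone, where 12.9% had them. Measured against the protein-coding median of each preparation, 10 lay above in all 3 and 3 below, beside 19.1% and 19.2% of coding loci. The count of 20 thus rests in part on the scaling, and it was 11 once protein-coding medians were set equal between libraries. GANAB had the highest mean of the 3 ratios, with log2 values of 0.38 in nuclear, 0.45 in cytosolic and 0.25 in whole-cell RNA. SEC62 followed with 17.1 and 23.6 FPKM in whole-cell, 20.6 and 25.5 in nuclear and 21.4 and 23.5 in cytosolic RNA. DNAJC3 had 6.29 and 7.53 FPKM in whole-cell, 9.81 and 12.3 in nuclear and 7.56 and 8.89 in cytosolic RNA. In both genes every knockdown value lay above its control value, by less than 1.5-fold. HYOU1 had a mean of -0.05 and STT3B -0.02, with ratios of both signs.

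**Figure D4:**
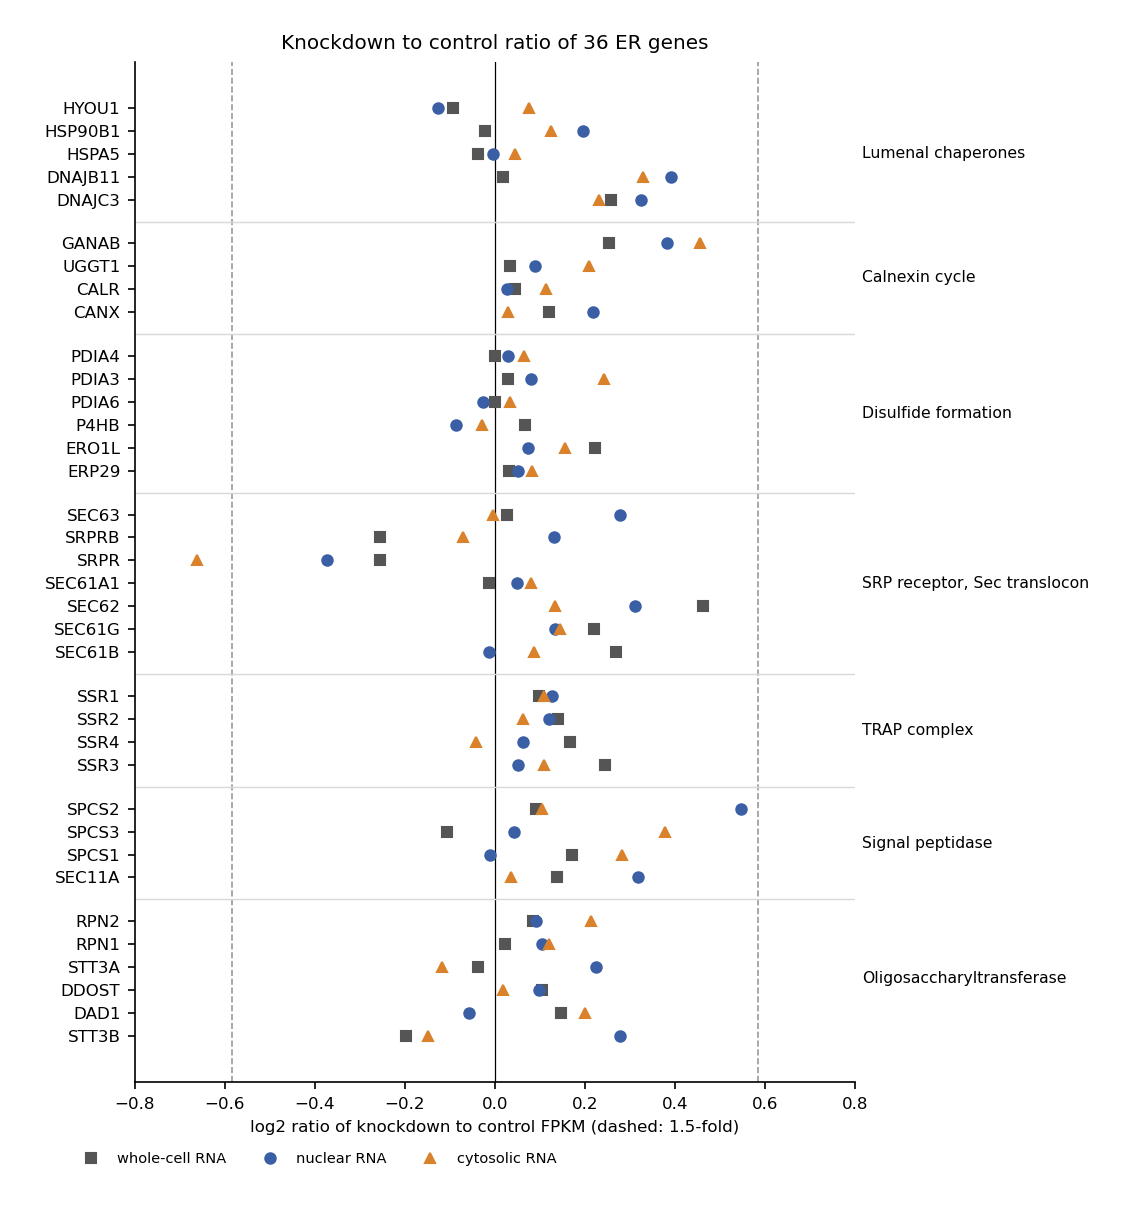
Log2 ratio of knockdown to control FPKM for the 36 genes in whole-cell (squares), nuclear (circles) and cytosolic RNA (triangles), 1 library per condition and preparation. Dashed lines mark 1.5-fold, and the cytosolic point of SRPR at -0.66 is the only one beyond them.

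The localization shift, the log2 nuclear to cytosolic ratio after knockdown minus that of the control, had a median of -0.02 over the 36. None shifted at least 1.5-fold toward the nuclear preparation (background 4.3%) or toward the cytosol (background 5.63%). The order of the genes was similar, with a Pearson r of 0.98 between the ratios of the conditions (0.91 over protein-coding loci), as a description over 36 genes. The highest shift was that of SPCS2, a signal peptidase subunit, at 0.44. It had 57.4 and 83.9 FPKM in nuclear, 58.5 and 62.9 in cytosolic and 38.9 and 41.5 in whole-cell RNA, so the nuclear value carried it. STT3B and STT3A, the alternative catalytic subunits of oligosaccharyltransferase, had shifts of 0.43 and 0.34, with higher nuclear and lower cytosolic values after knockdown. The STT3A value is that of a locus merged with CHEK1, so it cannot be assigned to STT3A alone. At the other end SPCS3 had -0.34, SPCS1 -0.29 and DAD1 -0.26. Subunits of the signal peptidase complex thus stood at both ends, and among protein-coding loci the percentile was 14.3 for SPCS3 and 92.1 for SPCS2. The counting error of a shift had a median of 0.05 among the 36, from 0.018 to 0.099, and leaves out differences between cultures.

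Several of these genes are textbook targets of the unfolded protein response, through the ER stress response element. The RefSeq promoter table (GRCh38.p14, 250 bases before to 50 after the start) held 31 of the 36. The element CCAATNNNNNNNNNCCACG, searched on both strands, was in 4 of the 31 (12.9%), namely HSPA5, HSP90B1, CALR and CANX, in 23 of 21021 promoters of protein-coding genes (0.109%) and in 27 of all 35116 promoters (0.0769%). The 2 promoters that follow show where the element lies in the principal lumenal chaperones, with its fixed letters in capitals.
HSPA5 (chr9:125241294-125241593, minus strand): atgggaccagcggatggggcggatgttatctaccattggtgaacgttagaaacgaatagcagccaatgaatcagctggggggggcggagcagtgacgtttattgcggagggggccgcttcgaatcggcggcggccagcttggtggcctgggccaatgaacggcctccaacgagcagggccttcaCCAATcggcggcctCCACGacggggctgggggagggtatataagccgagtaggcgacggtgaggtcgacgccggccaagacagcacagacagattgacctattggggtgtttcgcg
HSP90B1 (chr12:103930160-103930459, plus strand): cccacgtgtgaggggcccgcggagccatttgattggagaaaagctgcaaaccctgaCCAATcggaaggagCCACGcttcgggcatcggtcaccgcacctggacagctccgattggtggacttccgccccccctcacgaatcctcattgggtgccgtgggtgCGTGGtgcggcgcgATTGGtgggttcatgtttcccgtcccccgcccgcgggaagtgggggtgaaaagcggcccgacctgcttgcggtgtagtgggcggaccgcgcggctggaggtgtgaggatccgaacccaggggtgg

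HSPA5 holds the element once and HSP90B1 once on each strand. The log2 knockdown ratios of the 4 genes ran from -0.04 to 0.12 in whole-cell RNA, from -0.00448 to 0.22 in nuclear RNA and from 0.03 to 0.12 in cytosolic RNA. HYOU1 holds the ER stress response element II, found in 0.0541% of promoters. HYOU1 and SEC62 hold TGACGTGG, found in 0.729% of promoters. A match is a description of the letters and not of binding.

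The other genes of that response were set beside them. None of 13 sensors, factors and targets was 1.5-fold higher or lower in any preparation, where 2.25% to 3.29% of protein-coding loci were in each direction, so a count of 0 is near the background. Whole-cell FPKM of DDIT3, a stress-induced factor, was 76.9 in the control and 75.2 after knockdown. ATF4, the factor translated on stress, had 199 and 197 FPKM there, and XBP1, whose mRNA is spliced on ER stress, 28.97 and 31.3. Over the 13 the log2 whole-cell knockdown ratio ran from -0.47 for MANF to 0.24 for EIF2AK3, so the genes given here are not its extremes. The splicing of XBP1 cannot be read from values per gene. By nuclear to cytosolic ratio, 2 of the 13 were at least 2-fold above the protein-coding median in the control (background 16.3%) and 4 after knockdown (background 14.9%), so the control count is near the background.

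Lists of related genes placed the ER set among the others. Cargo that passes through the ER often stood high: 10 of 14 lysosomal proteins and 10 of 14 plasma membrane proteins were at least 2-fold above the protein-coding median in the control, with median log2 ratios of 0.77 and 0.73. PSAP, a lysosomal saposin precursor, had 374 FPKM in nuclear and 136 in cytosolic RNA, and GYPC, a red cell membrane protein, had 40.2 and 221, the reverse. Of 25 further ER genes 11 were at least 2-fold above, and 3 of 14 genes of ER-associated degradation and 6 of 15 of N-glycan precursor synthesis. These counts stand beside the 16.3% of all protein-coding loci, and that of ER-associated degradation is near it. For machinery that works in the cytosol the counts were low: 0 of 6 signal recognition particle proteins, 0 of 10 genes of the COPII coat and 0 of 17 cytosolic chaperones were at least 2-fold above, with medians of -1.27, -0.65 and -1.15. Of 7 genes of tail-anchor insertion 1 was, and of 16 respiratory chain subunits that mitochondria import after translation 0 were, with medians of -1.16 and -1.23. In lists of 6 to 10 genes, counts of 0 or 1 are near the background and no result about them. Across protein-coding loci the control ratio was lower at higher mean FPKM, with a Spearman rho of -0.34. The part of level in the differences between lists was not tested. With quantile normalization the cytosolic chaperones moved close to the protein-coding median, as given below. The HSP70 pair shows the contrast at single genes, with HSPA5 of the lumen at 1.36 and HSPA8 of the cytosol at -1.15. HSPA8 lies in a locus merged with further gene names, and the 17 cytosolic chaperones ran from -1.95 to -0.27. No test of the lists against each other was possible with 1 library per group.

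**Figure D5:**
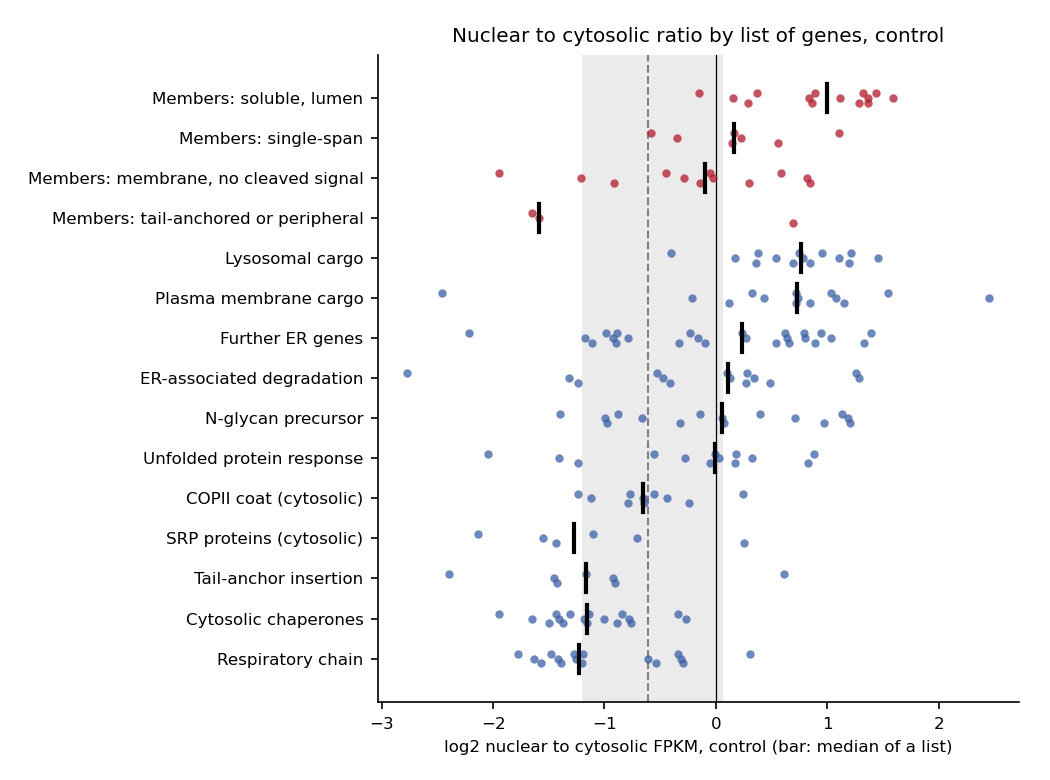
Log2 nuclear to cytosolic FPKM ratio in the control for the 36 genes by how the protein meets the membrane (red) and for 11 other lists (blue), 1 point per gene with a bar at each median. The grey band spans the middle 50% of protein-coding loci and the dashed line is their median, -0.61. Lumenal members and lysosomal and plasma membrane cargo have medians of 1.002, 0.77 and 0.73, and the medians of the cytosolic and mitochondrial lists lie below the dashed line, that of the COPII coat close to it.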

How the data were processed

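The deposited table holds FPKM values of 62828 loci made by the authors, in a column for each of the 6 libraries. No header names this unit, and it was inferred from the numbers. Tools named in the submitters' processing notes are Cuffdiff 2.2.1, TopHat2 2.0.13, FastQC and CASAVA, and the builds are mm9 and hg19, with roles not given. Coordinates in the table are those of hg19. Annotation, strand setting and scaling: not given in the sources used here.

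Ratios are differences of log2(FPKM + 0.1), which understate the change of low loci, over loci that reach a mean of 1 FPKM. Gene types, transcripts and coding sequences came from GENCODE release 29 by symbol. A fragment's worth of FPKM was read from the steps of low values at single-exon loci, and gave 13.4 to 39.2 fragments per FPKM and kilobase. The fewest fragments behind a member's value were 481. Counting errors come from these fragments and cover counting error only. The members and gene lists were chosen with earlier results of these data known. All 6 values were given for HSPA5, for the 6 highest and 6 lowest mean nuclear to cytosolic ratios, the 4 highest and 4 lowest mean knockdown ratios, and the 3 highest and 3 lowest shifts. At most 3 genes were named from each other list, except that of the unfolded protein response. There DDIT3 and XBP1 were not the highest or lowest of the list by any ratio. The HSPA8 value and the loci named for their retrieval signal were chosen after their values were seen. 8 alternatives were run. On simulated data 96.5% of 200 loci shifted 2-fold among 8498 were recovered at 1.5-fold. With 1 library per group the spread between cultures is unknown, so this share does not measure recovery in the real libraries. The work used Python 3.11.15 with matplotlib 3.10.9, scipy 1.17.1, pandas 2.3.3 and numpy 2.4.6.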

Additional observations from a re-analysis of the deposited data

How the results depend on the processing

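No paired analysis was possible because each group has 1 library, and leaving a library out was not possible either. Pseudocounts of 1 and 0.01 FPKM and the use of single-name loci moved none of 35 results over the genes. The control median log2 ratio of 0.29 became 1.29 with equal totals and 1.30 with quantile normalization. After knockdown it became 0.97 with protein-coding medians set equal, 1.39 with equal totals and 1.37 with quantile normalization. Relative to protein-coding loci, the medians of 0.90 in the control and 1.05 after knockdown became 1.45 and 1.51 with quantile normalization. With no minimum they became 0.57 and 0.74, since the protein-coding median itself rose to -0.27 in the control and -0.30 after knockdown. The count at least 2-fold below the protein-coding median became 1 with a minimum of 5 FPKM and 0 with quantile normalization, in each condition. The whole-cell knockdown median became -0.0207 with protein-coding medians set equal, 0.00231 with equal totals and -0.0272 with quantile normalization. Genes higher in all 3 preparations numbered 11, 13 and 12 in that order, and genes lower numbered 2 with protein-coding medians set equal and 2 with quantile normalization. The cytosolic chaperones, at -0.54 relative to protein-coding loci, moved to -0.88 with no minimum and -0.00582 with quantile normalization, and the respiratory chain subunits to -0.96 with no minimum. Of 568 recomputed ratios of single genes relative to the protein-coding median 246 moved beyond the counting error and 0 reversed. Those that moved were 72 with no minimum, 69 with quantile normalization, 60 with a minimum of 5 FPKM and 45 with a pseudocount of 1. Each of these settings recomputed 72 ratios, and the other settings moved none. A changed minimum leaves a gene's own ratio as it is, so there only the protein-coding median moved. For quantile normalization and the pseudocount the cause was not tested. The spread between cultures is unknown, and counting error alone is small for these abundant genes.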

Other observations

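Among the lists beside the 36 genes, 3 of the N-glycan precursor genes passed the 1.5-fold rule in some preparation. SRD5A3, which makes dolichol, had log2 knockdown ratios of 0.86 in whole-cell and -0.85 in cytosolic RNA, opposite in sign, at low levels of 1.99 and 3.70 FPKM in whole-cell RNA, control first. DPM3 had 0.77 and ALG12 -1.07 in cytosolic RNA. ALG12 was also a low gene, with 2.82 FPKM in nuclear and 2.12 in cytosolic control RNA. SIL1, a second exchange factor for HSPA5, had 18.7 FPKM in control and 30.3 in knockdown nuclear RNA, a log2 ratio of 0.69, and -0.11 in whole-cell RNA. SEC24D, a COPII cargo adaptor, had a cytosolic ratio of -0.61.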
